A study of Mus musculus with 36 samples.

Results

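AT-3 cells, a mouse breast cancer line grown out of an MMTV-PyMT mammary tumour, were given raised potassium together with either of a pair of potassium channel openers, NS11021 or BMS204352, and their RNA was sequenced. The comparison was between the 3 libraries of each group, 6 of the 36 libraries in the series, chosen by their titles. It was run across all expressed genes, with the spread estimated from all 18 AT-3 libraries. In both groups the cells were plated in 6-well dishes, left for 24 h and then treated for 24 h. One group received 40 mM KCl with 10 µM NS11021 and the other 40 mM KCl with 10 µM BMS204352, so the compounds were matched in dose and time. Both groups carried the same KCl, which cannot be told apart here from its osmolarity or chloride. Set beside them were AT-3 libraries with DMSO, KCl alone, 10 µM NS11021 or 10 µM BMS204352, 3 each, and the 6 KCl libraries with a compound from E0771, another mouse mammary cancer line. The sources do not say that the replicates came from separate cultures, so the p-values measure only the spread between these libraries.

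Potassium leaves a cell through its open potassium channels, which sets the membrane voltage, and raising the potassium outside shrinks that outward pull and depolarizes the cell. NS11021 opens the BK channel, a calcium- and voltage-gated potassium channel whose pore is encoded by Kcnma1. BMS204352 opens BK channels and also the KCNQ channels, a family of voltage-gated potassium channels. The title of the series ties the study to MRTFA and SRF, a coactivator and its transcription factor that read the state of actin and drive genes of the contractile cytoskeleton.

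The 6 libraries held 38.5 to 47.2 M counts each. Of 6 mammary epithelial markers, 5 lay above 1 CPM (counts per M of library total) in all 6 libraries, among them Krt14 at 1260 to 1450 and Epcam at 130 to 174, while the luminal keratin Krt8 lay between 0.0443 and 0.52. Of 8 leukocyte markers, Ptprc and Cd3e had 0 counts and 1, Cd68, lay above 1 CPM in all 6 libraries, at 2.37 to 8.65. Of 6 fibroblast markers 2 did so, Pdgfrb at 26.8 to 48.6 CPM and Pdgfra at 7.08 to 11.8. Of 6 endothelial markers 1 did so, Pecam1 at 1.40 to 2.27 CPM. Replicate 3 of KCl+BMS204352 stood apart: on the first principal component of the 6 libraries, 28.2% of their variance, it scored 45.8, against 1.36 and 14 for the other replicates of its group and -22.7 to -16.7 for NS11021.

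With BMS204352, 29 genes were higher and 38 lower than with NS11021, 67 of 14772 tested or 0.454% (0.196% higher, 0.257% lower; edgeR's quasi-likelihood test, Benjamini-Hochberg adjusted p below 0.05). The genes that fell with BMS204352 included the retinoic acid-clearing enzyme gene Cyp26b1, the Notch ligase gene Dtx4, the contractile genes Tpm1, Cnn1 and Synpo, and matrix genes such as Ogn and Col3a1. Those that rose included the proton pump subunit gene Atp6v0a4, the transporter gene Slco4a1 and 5 mRNAs of the mitochondrial genome. Most changes were small: the median called rise was 1.33-fold and the median called fall 1.47-fold, and 12 genes passed 2-fold. In all 67 genes the 3 libraries of one group lay wholly above the other 3, which over all tested genes was so for 20.4% (12% higher, 8.33% lower).

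The number of genes called rested on single libraries. It was 9, 21 and 5 without NS11021 replicate 1, 2 or 3, and 61, 10 and 4 without BMS204352 replicate 1, 2 or 3. With replicate 3 of both BMS204352 groups left out, with and without KCl, 106 genes passed, 49 of the 67 among them. All 67 genes kept their direction under each of the 14 alternatives run, and 4 of them, Cyp26b1, Dtx4, Ogn and Synpo, also kept their call under each.

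Placed against KCl alone, the compounds stood unequally far from it. KCl+NS11021 differed from KCl in 3 genes, 0.0203% of those tested, and KCl+BMS204352 in 183, 1.24% (108 or 0.731% higher, 75 or 0.508% lower). These comparisons share the KCl libraries with each other and the compound libraries with the main one, so their values are set side by side only. The 3 genes, named for this count after their values were seen, were Slc7a5, a large neutral amino acid transporter, Pck2, the mitochondrial PEP carboxykinase, and the cytokine gene Lif. Slc7a5 rose from KCl by 0.61 ± 0.10 (SE) on the log2 scale with NS11021 (adjusted p = 0.0342) and by 0.62 ± 0.10 with BMS204352 (adjusted p = 0.00543, same test). Between the compounds it differed by 0.01, with a 95% interval of -0.19 to 0.22, and Pck2 likewise by 0.01, with an interval of -0.19 to 0.21. For these genes a difference of the size of either compound's rise lies outside the interval. All 3 calls with NS11021 were lost without any 1 of the KCl libraries or without NS11021 replicate 1 or 2, with adjusted p up to 0.346, and were kept without NS11021 replicate 3. The count with BMS204352 was 38, 51 and 20 without KCl replicate 1, 2 or 3 and 214, 41 and 21 without BMS204352 replicate 1, 2 or 3. Same-numbered libraries deviated together in these comparisons, and with the replicate number as a block 8 genes passed for NS11021 (7 higher, 1 lower; Slc7a5, Pck2 and Lif among them) and 620 for BMS204352 (327 higher, 293 lower). Values against KCl for single genes, here and below, come from the fit without the block. Genes that did not pass there may pass with it.

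**Figure D1:**
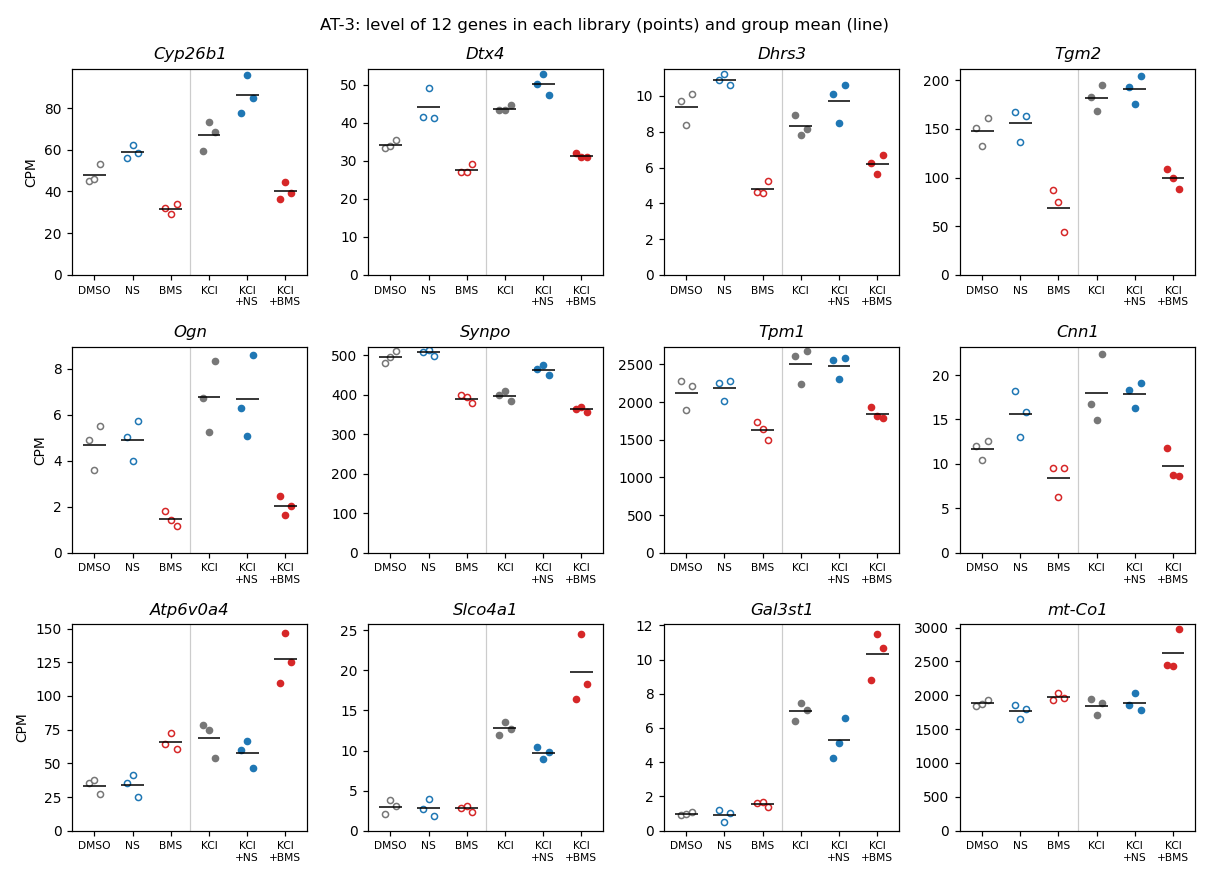
CPM of 12 genes in each AT-3 library, by treatment group (grey without a compound, blue NS11021, red BMS204352, open points without KCl, filled points with KCl; the line is the mean of 3). For Cyp26b1, the KCl+BMS204352 libraries sit between 36.4 and 44.6 CPM and the KCl+NS11021 libraries between 77.8 and 95.6.

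Genes of retinoic acid handling were among those that fell. Cyp26b1 encodes a cytochrome P450 that breaks down retinoic acid, Dhrs3 a reductase that turns retinaldehyde back to retinol, and Tgm2 a transglutaminase known to be induced by retinoic acid. Their promoters, 250 bases before to 50 after the start in RefSeq on GRCm38.p6, are shown because these genes fell together. Cyp26b1 lies at chr6:84593761-84594060 on the minus strand and Dhrs3 at chr4:144892577-144892876 on the plus strand. Capitals would mark AGGTCA or AGTTCA, hexamers bound by nuclear receptors, on either strand; neither window holds one.
Cyp26b1: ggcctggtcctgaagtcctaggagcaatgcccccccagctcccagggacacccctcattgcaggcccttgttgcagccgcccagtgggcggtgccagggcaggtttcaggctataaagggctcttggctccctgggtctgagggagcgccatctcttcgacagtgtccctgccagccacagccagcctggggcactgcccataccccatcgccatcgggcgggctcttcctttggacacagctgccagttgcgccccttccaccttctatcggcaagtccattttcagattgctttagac
Dhrs3: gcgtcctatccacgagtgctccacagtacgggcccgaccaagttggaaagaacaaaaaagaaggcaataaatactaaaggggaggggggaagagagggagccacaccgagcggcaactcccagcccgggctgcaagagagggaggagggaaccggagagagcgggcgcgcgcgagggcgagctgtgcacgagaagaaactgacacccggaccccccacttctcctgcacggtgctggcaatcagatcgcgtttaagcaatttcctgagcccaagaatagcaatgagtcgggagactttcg

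Over all 32851 promoter windows of that length, 16.3% held AGGTCA and 14% AGTTCA. Of the 38 genes that fell, 28 had an entry, with 43 windows, and 7 windows held AGGTCA and 5 AGTTCA.

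Cyp26b1 stood at 77.8, 95.6 and 84.9 CPM with KCl+NS11021 and at 36.4, 44.6 and 39.3 with KCl+BMS204352. The groups did not overlap, and KCl alone, at 59.2, 73.3 and 68.5 CPM, lay between them. The level was 2.17-fold lower with BMS204352 (log2 difference -1.12 ± 0.10, adjusted p = 3.19e-06). Against KCl it fell by 0.75 ± 0.10 with BMS204352 (adjusted p = 0.00127), while the value with NS11021 was 0.36 ± 0.10 and did not pass (adjusted p = 0.918). Dhrs3 stood at 10.1, 8.48 and 10.6 CPM with NS11021 and at 6.23, 5.61 and 6.70 with BMS204352. No library of one group reached the other, and the log2 difference was -0.67 ± 0.13 (adjusted p = 0.0207).

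Tgm2 was at 193, 176 and 204 CPM with NS11021 and at 109, 100 and 88.2 with BMS204352, again without overlap. It fell by 0.96 ± 0.18 on the log2 scale (adjusted p = 0.0392). Of its exon bases 21.8% are shared with a gene on the other strand, and the counting strand is not stated. With 1 library left out, the adjusted p of Dhrs3 ran from 0.0271 to 0.154 and was above 0.05 without NS11021 replicate 1 or 3 or BMS204352 replicate 2 or 3. That of Tgm2 ran from 0.0643 to 0.234, so its call was lost whichever library was left out. Of 17 tested genes in a list of retinoic acid metabolism and response, drawn up after these values had been seen, these 3 fell and 0 rose. Of all tested genes 0.257% fell, but the list was made with these falls known, so its count is no result about the list. The list's median was -0.04, beside 0.0041 over all tested genes. Aldh1a3, a retinoic acid-making dehydrogenase gene, had a log2 difference of +0.59 and did not pass (adjusted p = 0.089).

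Dtx4 encodes an E3 ubiquitin ligase of the Notch pathway. It stood at 50.1, 52.9 and 47.2 CPM with NS11021 and at 31.9, 30.9 and 30.9 with BMS204352. The replicates were close in both groups and the groups lay far apart for that spread (-0.70 ± 0.07, adjusted p = 3.21e-05). KCl alone averaged 43.7 ± 0.703 CPM (SD, n = 3), between both.

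Among the genes that fell with BMS204352 were some of the contractile and cortical cytoskeleton, while most listed genes of that kind did not pass. Tpm1, a tropomyosin that lines actin filaments and an MRTF-SRF target, is shown with its promoter at chr9:67049164-67049463 (minus strand, GRCm38.p6), where the capitals mark GGAATG, the core bound by TEAD factors, found in 14.7% of all windows on either strand.
Tpm1: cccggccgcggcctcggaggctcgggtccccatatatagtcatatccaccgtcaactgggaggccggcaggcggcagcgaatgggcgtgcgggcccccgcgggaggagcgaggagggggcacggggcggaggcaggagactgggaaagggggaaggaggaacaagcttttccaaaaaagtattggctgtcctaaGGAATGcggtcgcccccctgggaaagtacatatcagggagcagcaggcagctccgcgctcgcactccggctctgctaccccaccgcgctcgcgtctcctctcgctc

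A match is a description of these letters and not of binding. Of the 43 windows of genes that fell, 5 held GGAATG. The CArG box, the site bound by SRF, was in 1 of the 43, that of Ripor2, beside 1.63% of all windows. A full match to the CArG box was not found in the Tpm1 window, and partial matches were not counted. Tpm1 stood at 2560, 2310 and 2590 CPM with NS11021 and at 1930, 1820 and 1790 with BMS204352. KCl alone, at 2610, 2240 and 2680, overlapped the NS11021 libraries, and the groups compared did not overlap (-0.44 ± 0.08, adjusted p = 0.019). Against KCl the log2 values were -0.01 ± 0.08 with NS11021 and -0.46 ± 0.08 with BMS204352. Cnn1, the smooth muscle calponin, stood at 18.3, 16.3 and 19.1 CPM with NS11021 and at 11.8, 8.75 and 8.65 with BMS204352, without overlap (-0.90 ± 0.18, adjusted p = 0.0353). Synpo, a binder of actin and alpha-actinin, stood at 464, 474 and 451 against 363, 369 and 356 CPM. Its difference was small beside its level but exceeded the spread of either group (-0.37 ± 0.05, adjusted p = 0.000787). With KCl alone Synpo stood at 398, 410 and 384 CPM, between both groups. Against KCl its value was 0.22 ± 0.05 with NS11021 and -0.14 ± 0.05 with BMS204352. Neither passed (edgeR, adjusted p = 0.204 and 0.134).

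Limch1, an activator of non-muscle myosin II, fell by 0.82 ± 0.13 (adjusted p = 0.00853). Phldb2, a protein that anchors microtubules at the cell cortex, fell by 0.71 ± 0.13 (adjusted p = 0.0207), and Tns3, a tensin of focal adhesions, by 0.40 ± 0.08 (adjusted p = 0.0281). Prex2, an activator of the GTPase Rac, fell by 0.87 ± 0.17 (adjusted p = 0.0251) and Ripor2, an inhibitor of the GTPase RhoA, by 0.90 ± 0.19 (adjusted p = 0.0482). Wwc1, also known as Kibra, an upstream Hippo pathway protein and a YAP-TEAD target, fell by 0.33 ± 0.07 (adjusted p = 0.0281). Over the 6 removals of 1 library the highest adjusted p was 0.0665 for Limch1, 0.130 for Tpm1, 0.150 for Phldb2, 0.167 for Tns3, 0.176 for Prex2, 0.179 for Wwc1, 0.234 for Cnn1 and 0.258 for Ripor2. The library whose removal gave it was BMS204352 replicate 3, except for Wwc1, where it was NS11021 replicate 3. With replicate 3 of both BMS204352 groups left out, Tpm1, Cnn1 and Tns3 lost their call. Limch1, Phldb2, Prex2, Wwc1 and Ripor2 kept theirs.

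Of 39 tested MRTF-SRF targets, 2 fell (Tpm1 and Cnn1) and 0 rose, where 0.257% of all tested genes fell. The list's median was -0.09, 31 members had a negative value and 8 lay wholly lower, beside 8.33% of all tested genes. Myl9, a myosin light chain, had -0.79 (adjusted p = 0.0643), Mylk, its kinase, -0.92 (adjusted p = 0.153), and Acta2, smooth muscle actin, -0.40 (adjusted p = 0.165). Without replicate 3 of both BMS204352 groups the median was -0.24 and 0 members passed, since the calls of Tpm1 and Cnn1 were lost. Of 18 tested YAP-TEAD targets 1 fell (Wwc1) and 0 rose, with a median of -0.14. Without the same libraries 2 of them fell and 1 rose, with a median of -0.27. Of 46 adhesion and cortical cytoskeleton genes 1 fell (Tns3), 27 had a positive value and the median was 0.01. Mrtfa itself averaged 116 ± 3.52 CPM (SD, n = 3) with NS11021 and 107 ± 15.3 with BMS204352 (log2 difference -0.14, 95% interval -0.35 to 0.07, adjusted p = 0.618). Srf averaged 98.6 ± 12.9 and 97.2 ± 14.7 CPM (-0.04, interval -0.36 to 0.29, adjusted p = 0.957).

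**Figure D2:**
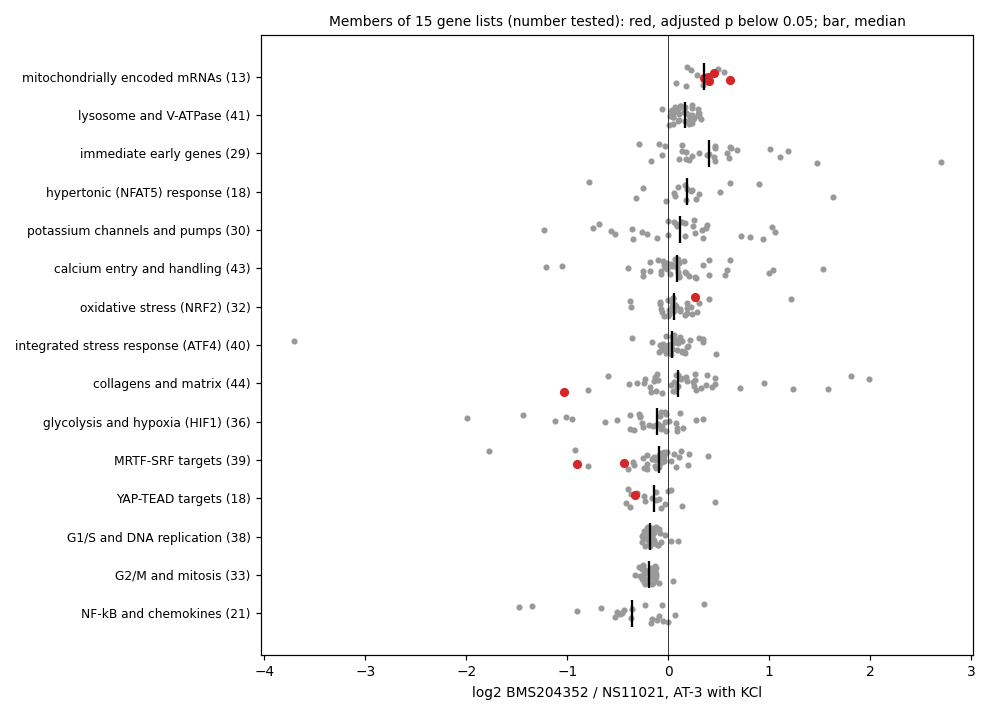
Log2 difference, BMS204352 minus NS11021 in KCl, of each tested member of 15 gene lists, with members past the threshold in red and a bar at each list's median. All 13 mitochondrially encoded mRNAs lie above 0, with 5 past the threshold, while the 39 MRTF-SRF targets centre on -0.09.

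Matrix genes gave both low-level and high-level falls. Ogn, the small proteoglycan osteoglycin, stood at 6.30, 5.10 and 8.60 CPM with NS11021 and at 2.45, 1.66 and 2.03 with BMS204352. This was the largest called fall, 3.29-fold, with no overlap (-1.72 ± 0.25, adjusted p = 0.00288). Col11a1, a fibrillar collagen chain, was among the abundant RNAs, at 1300, 1270 and 1390 CPM against 951, 876 and 926. The groups were tight and separate (-0.54 ± 0.09, adjusted p = 0.0131). Col3a1, another fibrillar collagen, stood at 15.2, 14.5 and 19.8 against 9.95, 7.68 and 6.91 CPM, also without overlap (-1.03 ± 0.22, adjusted p = 0.0487). The basement membrane chains Col4a3 and Col4a5 fell by 1.19 ± 0.22 and 0.30 ± 0.05 (adjusted p = 0.0207 and 0.0169). The collagen and matrix list does not hold Ogn, Col11a1, Col4a3 or Col4a5. Of its 44 tested genes 1 fell (Col3a1) and 0 rose, where 0.257% of all tested genes fell, and the median was 0.1. Over the removals of 1 library the highest adjusted p was 0.0366 for Ogn (NS11021 replicate 3), 0.0967 for Col11a1 (the same library), and 0.277, 0.134 and 0.119 for Col3a1, Col4a3 and Col4a5 (BMS204352 replicate 3). With replicate 3 of both BMS204352 groups left out, Col3a1 lost its call, and Ogn, Col11a1, Col4a3 and Col4a5 kept theirs.

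Among the other large falls were membrane, immune and signalling genes. Gabrp, a GABA-A receptor subunit made by some breast tumours, stood at 11.2, 7.44 and 8.47 CPM with NS11021 and at 3.18, 3.10 and 2.33 with BMS204352. It was 3.19-fold lower, and KCl alone averaged 6.07 ± 0.787 CPM (SD, n = 3; log2 difference between the compounds -1.68 ± 0.28, adjusted p = 0.0151). Serpinb9, an inhibitor of granzyme B, stood at 20.1, 13.0 and 22.7 against 10.1, 9.09 and 7.35 CPM, without overlap (-1.09 ± 0.17, adjusted p = 0.00647). Its level with DMSO averaged 6.71 CPM and with KCl 21.1. Akap6, an anchor of protein kinase A, fell by 1.35 ± 0.22 (adjusted p = 0.00853), and St5, now called Dennd2b, a Rab exchange factor, by 0.74 ± 0.14 (adjusted p = 0.019). Ifit2, an interferon-induced gene, and Tfrc, the transferrin receptor, fell by 0.53 and 0.39 (adjusted p = 0.0207 and 0.0281). They were the only called members of their lists, 1 of 37 interferon genes with a median of -0.12 and 1 of 7 metal-response genes with a median of -0.05. Among all tested genes 0.257% fell. Without BMS204352 replicate 3 the adjusted p was 0.130 for Gabrp, 0.0665 for Serpinb9, 0.0715 for Akap6, 0.135 for St5, 0.167 for Ifit2 and 0.214 for Tfrc, the highest over the 6 removals for each. All of these genes kept their call with replicate 3 of both BMS204352 groups, with and without KCl, left out.

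Atp6v0a4 led the named rises. It encodes the a4 subunit of the vacuolar proton pump, best known from acid-secreting cells of the kidney. Its promoter at chr6:38124537-38124836 (minus strand, GRCm38.p6) is shown because it turned the other way in E0771; the capitals mark GGAATG read on the opposite strand.
Atp6v0a4: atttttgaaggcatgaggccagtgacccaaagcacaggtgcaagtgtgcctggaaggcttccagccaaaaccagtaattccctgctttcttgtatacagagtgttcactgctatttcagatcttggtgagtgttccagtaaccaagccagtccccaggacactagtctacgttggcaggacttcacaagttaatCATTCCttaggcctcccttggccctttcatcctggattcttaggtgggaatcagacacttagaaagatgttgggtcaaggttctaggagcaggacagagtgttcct

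Atp6v0a4 stood at 60.2, 66.6 and 46.2 CPM with NS11021 and at 110, 147 and 125 with BMS204352. All BMS204352 libraries lay above all NS11021 libraries, and KCl alone, at 78.5, 74.7 and 53.6 CPM, overlapped NS11021. The level was 2.18-fold higher (log2 difference 1.13 ± 0.20, adjusted p = 0.0279). Without KCl it stood at 35.6, 41.0 and 24.8 CPM with NS11021 and at 64.6, 72.3 and 60.9 with BMS204352, so the gap was seen at a lower level too. Slco4a1, an organic anion transporter that carries thyroid hormone, stood at 10.4, 8.95 and 9.80 CPM against 16.4, 24.6 and 18.3. It did not overlap (1.01 ± 0.20, adjusted p = 0.0292). Gal3st1, the sulfotransferase that makes sulfatide, stood at 4.22, 5.15 and 6.61 against 8.82, 11.5 and 10.7 CPM, without overlap (0.94 ± 0.21, adjusted p = 0.0487). The largest called rise in fold, 2.73-fold, was that of Ptprn, a secretory granule protein, at a level of 0.936 to 3.33 CPM.

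Smaller rises came from genes of several roles. Mgat4a, an N-glycan branching enzyme, rose by 0.54 ± 0.11 (adjusted p = 0.0279), Serinc2, a membrane protein of the serine incorporator family, by 0.52 ± 0.10 (adjusted p = 0.0207), and Aspa, which splits N-acetylaspartate, by 0.47 ± 0.09 (adjusted p = 0.0279). Inhbb, the activin B subunit, rose by 0.44 ± 0.09 (adjusted p = 0.0292), and Ssh3, a cofilin phosphatase, by 0.41 ± 0.08 (adjusted p = 0.0279). Gpx2, a glutathione peroxidase, rose by 0.53 ± 0.11 (adjusted p = 0.0412) and Ephx1, the microsomal epoxide hydrolase, by 0.27 ± 0.05 (adjusted p = 0.0207). Of 32 tested NRF2 genes Ephx1 was the only 1 called, where 0.196% of all tested genes rose, with a list median of 0.06. Over the 6 removals of 1 library the adjusted p of Atp6v0a4 ran from 0.0351 to 0.160 and of Slco4a1 from 0.0283 to 0.189, each below 0.05 only without BMS204352 replicate 1. For Gal3st1 and Mgat4a it ran from 0.0524 to 0.252 and from 0.0505 to 0.154. Serinc2, Aspa, Ssh3, Gpx2 and Ephx1 likewise kept their call only without BMS204352 replicate 1, and Inhbb only without NS11021 replicate 2, with highest values of 0.135, 0.209, 0.213, 0.244, 0.147 and 0.220 in that order. With replicate 3 of both BMS204352 groups left out, Atp6v0a4 and Gal3st1 lost their call. Slco4a1, Mgat4a, Serinc2, Aspa, Inhbb, Ssh3, Gpx2 and Ephx1 kept theirs.

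The mRNAs of the mitochondrial genome, which code for core subunits of the respiratory chain and ATP synthase, were higher with BMS204352. Of the 13, 5 rose and 0 fell, where 0.196% of all tested genes rose. All 13 had a positive value and 11 lay wholly higher, beside 12% of all tested genes. The median was 0.36, beside 0.0041 over all tested genes. mt-Co1, a cytochrome oxidase subunit, stood at 1850, 2040 and 1790 CPM with NS11021 and at 2450, 2430 and 2980 with BMS204352. The lowest BMS204352 library lay above the highest NS11021 library (0.45 ± 0.08, adjusted p = 0.0105). The other rises were in complex I subunits: mt-Nd4l by 0.61 ± 0.13, mt-Nd4 by 0.41 ± 0.09, mt-Nd6 by 0.40 ± 0.08 and mt-Nd5 by 0.36 ± 0.07 (adjusted p = 0.0412, 0.0316, 0.0279 and 0.0207). Together the mitochondrial genes took 0.687% to 0.792% of counts with KCl+BMS204352, 0.549% to 0.595% with KCl+NS11021 and 0.49% to 0.608% in the other AT-3 groups.

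These 13 RNAs are read from the same genome and share reads with nuclear copies, so they are not 13 separate results. Of 39 nuclear genes of oxidative phosphorylation 0 passed and the median was 0.05. Without KCl 0 of the 13 passed and their median was 0.11; mt-Co1 stood there at 1860, 1650 and 1800 CPM with NS11021 and at 1930, 2030 and 1960 with BMS204352. The difference with minus without KCl was 0.30 for mt-Co1 (95% interval 0.08 to 0.52) and 0.70 for mt-Nd4l (0.31 to 1.09), and neither passed the adjustment (adjusted p = 1). Over the removals of 1 library the highest adjusted p was 0.0967 for mt-Co1 (NS11021 replicate 3) and 0.234, 0.214, 0.167 and 0.213 for mt-Nd4, mt-Nd4l, mt-Nd5 and mt-Nd6 (BMS204352 replicate 3). With replicate 3 of both BMS204352 groups left out, mt-Nd4 and mt-Nd4l lost their call, and mt-Co1, mt-Nd5 and mt-Nd6 kept theirs.

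**Figure D3:**
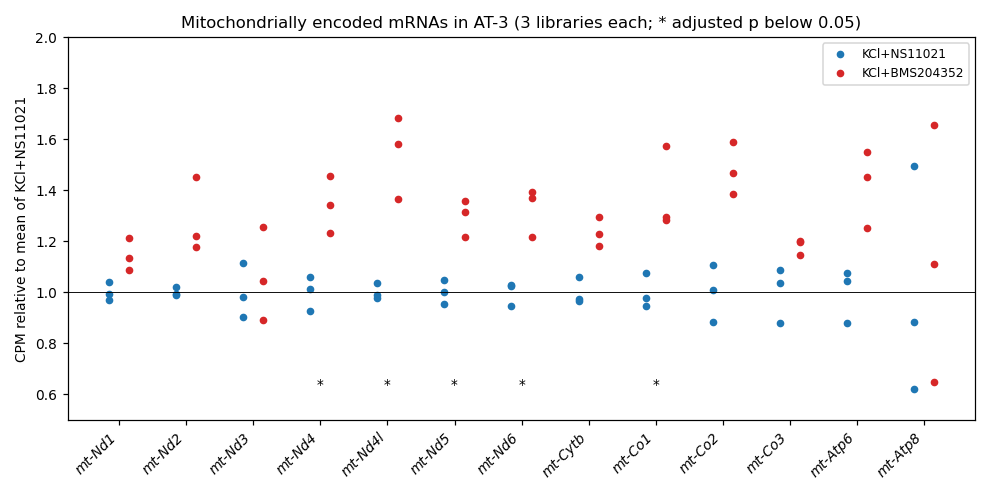
CPM of the 13 mitochondrially encoded mRNAs in the libraries with KCl, each relative to its mean with KCl+NS11021. The KCl+BMS204352 libraries lie wholly above the KCl+NS11021 libraries for 11 of the 13.

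Genes of potassium channels, including those the compounds act on, were scarce or did not pass between the compounds in KCl. Kcnma1 had between 0.0887 and 0.297 CPM in the 6 libraries, and its log2 difference of 0.94 had a 95% interval of -0.73 to 2.61 (adjusted p = 0.672). Kcnq5, a KCNQ channel, averaged 5.22 ± 0.156 CPM (SD, n = 3) with NS11021 and 5.93 ± 1.79 with BMS204352, and its value of 0.17 turned to -0.12 without BMS204352 replicate 3. Kcnn4, an intermediate-conductance calcium-activated potassium channel, is neither a BK nor a KCNQ channel. It was the best expressed of the 3, at 88.8, 105 and 77.9 CPM with NS11021 and 131, 163 and 189 with BMS204352. The groups did not overlap, yet the difference of 0.81 ± 0.22 did not pass (adjusted p = 0.154 by edgeR, 0.0316 by DESeq2 and 0.0807 to 0.469 over the edgeR alternatives). Against KCl alone, Kcnn4 rose by 1.05 ± 0.22 with BMS204352 (edgeR, adjusted p = 0.0404). With NS11021 the value was 0.24 ± 0.22 and did not pass. Without KCl the compounds differed by 1.20 ± 0.22 (edgeR, adjusted p = 0.0138). Of 30 tested potassium channel and pump genes, and of 43 calcium entry and handling genes, 0 passed, with medians of 0.11 and 0.09.

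Several lists leaned one way with 0 members called. Of 41 tested lysosome and V-ATPase genes, 40 had a positive value and 24 lay wholly higher, beside 12% of all tested genes, with a median of 0.17. Mcoln1, the lysosomal calcium channel TRPML1, stood at 53.5, 52.4 and 50.9 CPM with NS11021 and at 64.1, 66.3 and 64.8 with BMS204352 (adjusted p = 0.0765). Cd68, a lysosomal protein that is also a macrophage marker, lay between 2.37 and 8.65 CPM in the 6 libraries and made up most of the summed leukocyte markers, 2.77 to 4.68 CPM with NS11021 and 5.02 to 8.77 with BMS204352. Of 33 tested G2/M genes 32 had a negative value and 13 lay wholly lower (median -0.19), as did 36 and 9 of 38 G1/S genes (median -0.18), beside 8.33% of all tested genes wholly lower. Top2a, the mitotic topoisomerase, stood at 860, 871 and 851 CPM with NS11021 and at 767, 696 and 683 with BMS204352 (adjusted p = 0.376). Of 21 tested NF-kB and chemokine genes 18 had a negative value, with a median of -0.36 that was -0.18 without BMS204352 replicate 3 and -0.17 without replicate 2.

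Immediate early genes, switched on by calcium and growth signals, had a median of 0.41, with 24 of 29 positive and 13 wholly higher, beside 12% of all tested genes. This leaned on 1 library. Fosb, a member of the AP-1 family, stood at 2.65, 3.22 and 2.53 CPM with NS11021 and at 8.82, 7.99 and 37.8 with BMS204352, and Fos at 7.02, 6.66 and 4.88 against 9.20, 10.5 and 32.3. BMS204352 replicate 3 lay far above its group in both. Without it the list's median was 0.15, and 0 members passed with or without it. With replicate 3 of both BMS204352 groups left out 1 member passed. The lists of the ATF4 stress response (40 tested, median 0.04), the unfolded protein response (25, 0.01), heat shock (22, -0.01), p53 targets (31, 0.03) and hypertonic NFAT5 targets (18, 0.18) each had 0 members called.

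The same difference between the compounds was measured without KCl in 6 other libraries, where 434 genes passed, 2.94% (205 or 1.39% higher, 229 or 1.55% lower). The 2 comparisons are not independent, as they share an estimate of the spread. Same-numbered libraries without and with KCl also deviated together, with correlations of 0.413, 0.435 and 0.673 for BMS204352 and 0.152, 0.351 and 0.32 for NS11021. BMS204352 replicate 3 stood apart without KCl too, at 65.9 against 17.2 and 22.1 on the first component of the AT-3 libraries. Of the 38 genes lower with BMS204352 in KCl, all 38 had the same sign without KCl and 31 passed, 81.6% of the 38 and 13.5% of the 229, with medians of -0.56 in KCl and -0.67 without. Of the 29 higher, 27 had the same sign and 14 passed, 48.3% of the 29 and 6.83% of the 205, with medians of 0.41 and 0.26. Cyp26b1 fell by 0.90 ± 0.10 without KCl, Dtx4 by 0.67 ± 0.07, Ogn by 1.74 ± 0.25 and Synpo by 0.38 ± 0.05, near their values in KCl. Dhrs3 fell by 1.18 ± 0.13 there, beside 0.67 with KCl. The count of 434, and with it these shares, rested on the libraries fitted: it was 14 (2 higher, 12 lower) with the 6 libraries compared alone, 169, 218 and 79 without NS11021 replicate 1, 2 or 3 and 1070, 511 and 140 without BMS204352 replicate 1, 2 or 3. Slco4a1 had -0.03 ± 0.23 without KCl, where its level was 2.37 to 3.14 CPM with BMS204352 and 1.89 to 3.93 with NS11021, beside 1.01 with KCl.

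A test of the difference with minus without KCl called 0 of 14772 genes by edgeR, with 419 at an unadjusted p below 0.05, and 1 gene, Baiap2l2, by DESeq2. For Slco4a1 it gave 1.04 (95% interval 0.39 to 1.68) and for Dhrs3 0.52 (0.14 to 0.89), each with an adjusted p of 1. For Cyp26b1 it gave -0.22 (interval -0.50 to 0.07) and for Tpm1 -0.01 (-0.25 to 0.23).

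**Figure D4:**
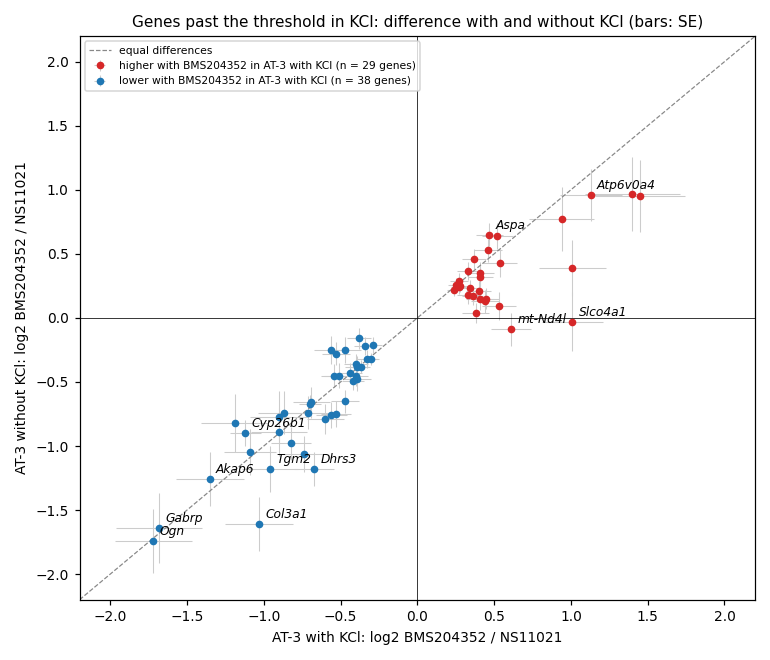
Log2 difference, BMS204352 minus NS11021, of the 67 called genes with KCl (x axis) and without KCl (y axis), with standard errors and a dashed line of equality. The 38 genes lower with KCl all lie below 0 without KCl, and Slco4a1 lies near 0 there.

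E0771 served to show where AT-3 differed. In its KCl libraries 661 of 13357 genes passed between the compounds, 4.95% (138 or 1.03% higher, 523 or 3.92% lower). With the replicate number as a block, by which these libraries were taken as pairs, 786 passed (186 higher, 600 lower). The E0771 values that follow are from the fit without the block unless stated. Of the 28 genes lower in AT-3 that were tested in E0771, 24 had the same sign and 6 passed, 15.8% of the 38 and 1.15% of the 523. Among them were Tgm2 at -0.58 ± 0.09, Tpm1 at -0.38 ± 0.08, Tns3 at -0.40 ± 0.07 and Dtx4 at -0.29 ± 0.08. Of the 25 tested genes higher in AT-3, 11 had the same sign, 2 passed in the same direction and 4 in the opposite one.

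Those 4 were Atp6v0a4, Slco4a1, Gal3st1 and Ephx1. Atp6v0a4 stood at 2.71, 2.62 and 3.03 CPM in E0771 with KCl+NS11021 and between 0.691 and 1.17 with KCl+BMS204352, far below its level in AT-3 and in the reverse order. It fell there by 1.56 ± 0.32 (adjusted p = 0.00238), and the test of the difference between the lines gave -2.71 ± 0.34 (E0771 minus AT-3, adjusted p = 4.77e-05). That test called 223 of 15969 genes, 1.4% (54 or 0.338% higher, 169 or 1.06% lower). It also called Cyp26b1, whose value in E0771 was -0.20 ± 0.13 (line difference 0.91 ± 0.17, adjusted p = 0.00437). For Dtx4 it gave 0.40 ± 0.11 (adjusted p = 0.0473), so the fall was smaller in E0771. For Tpm1 it gave 0.06 (95% interval -0.18 to 0.30) and did not pass (adjusted p = 0.92). The mitochondrial mRNAs had a median of 0.25 in E0771, with 1 of 13 called, mt-Nd4l at 0.64 ± 0.18 (adjusted p = 0.0457). Same-numbered E0771 libraries deviated together, and with the replicate block mt-Nd4l no longer passed (adjusted p = 0.0667).

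**Figure D5:**
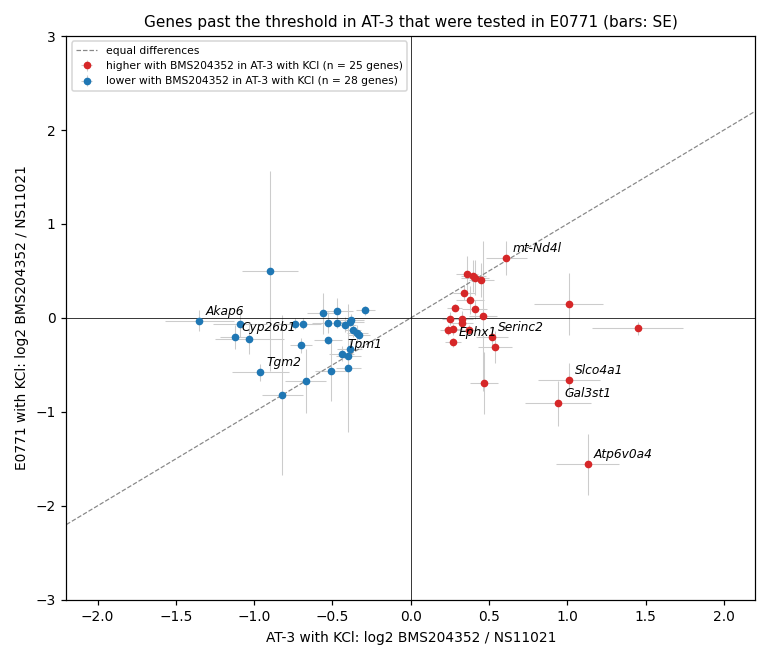
Log2 difference, BMS204352 minus NS11021 in KCl, of the called AT-3 genes that were tested in E0771, in AT-3 (x axis) and E0771 (y axis), with standard errors. Atp6v0a4 lies at 1.13 in AT-3 and -1.56 in E0771, while Tpm1 lies at -0.44 and -0.38.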

How the data were processed

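RNA of 36 libraries was measured by RNA-seq. The authors deposited raw counts of reads for each gene as 1 table, made with STAR, featureCounts and GRCm38 per the submitters' processing notes. Their versions and the use of strand in counting are not given in the sources used. Every column was matched to a sample by title, leaving 0 over. The 2 human IDs (6 counts in all) were left out of 32285 mouse IDs, and 127 of those, with 0.0415% of counts, had no symbol in GENCODE vM21. Of counts from 1 to 10, 84.5% were even, so halved counts were an alternative. No 2 libraries were identical.

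Genes were kept with filterByExpr (minimum count 10, minimum total 15) and scaled by TMM. edgeR 4.0.16 (limma 3.58.1, R 4.3.3) fitted its robust quasi-likelihood test to the 18 AT-3 libraries, coded as BMS204352 minus NS11021, and likewise to E0771. A fit to all 36 libraries tested the difference between lines. The Benjamini-Hochberg adjustment ran over all tested genes of a comparison, with a threshold of 0.05. SE is the absolute log2 difference over the square root of F, CPM is counts per M of library total, and 95% intervals come from the fit. The AT-3 common dispersion was 0.0136. The depth was 38.5 to 52.6 M counts per AT-3 library. On simulated counts for 14476 genes of the main comparison, the test recovered 71 of 100 genes changed 1.5-fold and 88 of 100 changed 2-fold, with 10 false calls among 169. Only genes above a floor of mean counts were changed. The simulated libraries were independent, without an outlying library or shared deviations of same-numbered ones.

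Genes were named by a rule: 5 index genes, the 12 largest called rises and falls among genes whose libraries did not overlap and whose log2 CPM averaged 2 or more, up to 4 members of each list with a call, and 3 genes a direction in the interaction and line difference. Other genes named, such as Dtx4, Synpo, Akap6, Col11a1, Col4a3, Col4a5, Ptprn, Mcoln1, Top2a and Fos, were chosen after their values were seen. The comparison and all lists were chosen with earlier results of these data known, and the retinoic acid list after seeing the values here. Lists are given by counts and medians. In the lists, 19 of 20 NFAT5 genes and 38 of 40 interferon genes matched the table. For Rhbdl1, called higher, 81.4% of exon bases also belong to Gm20683, so it is uncertain. Promoters are RefSeq's. Alternatives were DESeq2 1.42.0, its size factors, other filters, a replicate block, halved counts, the compared libraries alone, replicate 3 of both BMS204352 groups left out, and each library left out in turn.

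Replicate numbers were taken from the titles and, as a check of pairing, deviations of same-numbered libraries from their group means were correlated across genes, with pairing taken where all 3 values were above 0.1. For NS11021 and BMS204352 in KCl they were 0.159, 0.241 and 0.0758 (10492 genes), and without KCl 0.0252, 0.111 and 0.0408, so these were not taken as pairs. They were 0.163, 0.413 and 0.471 for KCl and KCl+NS11021, 0.158, 0.176 and 0.122 for KCl and KCl+BMS204352, and 0.158, 0.123 and 0.111 for the compounds in KCl in E0771, which were taken as pairs from the data, not the design. Between AT-3 libraries of the same compound without and with KCl all values were above 0.1 as well. They were 0.413, 0.435 and 0.673 for BMS204352 and 0.152, 0.351 and 0.32 for NS11021.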

Additional observations from a re-analysis of the deposited data

Results flagged for a closer look

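Of 43 named genes tested, 17 differed between the lines by the test of the difference itself (E0771 minus AT-3, edgeR's quasi-likelihood test, adjusted p below 0.05). Over all tested genes 1.4% did so. The count follows in part from how genes were named. Cped1, Ripor2, Guca1a, Ptpdc1, Krt7 and Fosb were named because they passed this test, and many others for their large AT-3 difference. In 8 genes the AT-3 value was positive and the E0771 value negative: the differences were -2.71 for Atp6v0a4, -1.86 for Gal3st1, -1.67 for Slco4a1, -1.17 for Aspa, -0.97 for Kcnn4, -0.86 for Mgat4a, -0.73 for Serinc2 and -0.54 for Ephx1. Of these, Atp6v0a4, Gal3st1, Slco4a1 and Ephx1 were called in both lines in opposite directions. In Cyp26b1, Serpinb9 and St5 the AT-3 fall was larger, with differences of 0.91, 1.02 and 0.68, and the E0771 values were -0.20, -0.06 and -0.06. Fosb differed by -3.06, with AT-3 values of 8.82, 7.99 and 37.8 CPM with BMS204352, the last from replicate 3.

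In 5 genes the difference rested on levels near 0 in 1 of the lines, so that the fitted size is no measure of a fold. Cped1, at 5.77, had 0 counts in all 3 AT-3 KCl+BMS204352 libraries and at most 0.208 CPM with KCl+NS11021. Guca1a, at 2.48, lay at or below 0.443 CPM in the 6 AT-3 libraries. In E0771 the levels with both compounds were at most 0.331 CPM for Ptpdc1 (-5.89), 0.663 for Krt7 (-3.97) and 0.438 for Ripor2 (4.19).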

How the results depend on the processing

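The count of 67 genes was 68 with DESeq2's size factors, 89 without a filter, 66 with a filter of 1 CPM and 71 on halved counts. It moved further to 106 without replicate 3 of both BMS204352 groups, 241 by DESeq2, 189 with the compared libraries alone, 303 with a replicate block, and 4 to 61 with 1 of the 6 libraries left out. The check given with the methods did not take the libraries of this comparison as pairs, since 1 same-numbered value, 0.0758, lay below 0.1. Between unlike numbers, NS11021 replicate 3 and BMS204352 replicate 1 gave 0.085, and the other values ran from -0.217 to -0.0113. Over all AT-3 groups 35 of 45 same-numbered pairs lay above 0.1, so a partial pairing cannot be set aside. Without KCl the count of 434 became 268 without those libraries, 905 by DESeq2, 14 with the compared libraries alone (of which 14.3% higher, against 47.2%), 894 with the block and 79 to 1070 with 1 library left out. For KCl+BMS204352 against KCl, 183 became 510 by DESeq2, 620 with the block and 20 to 214 with 1 library left out. For KCl+NS11021 against KCl, 3 became 39 without those libraries, 14 by DESeq2, 7 without a filter, 23 with the compared libraries alone, 8 with the block and 0 to 3 with 1 library left out. The difference with minus without KCl stayed at 0 apart from 1 gene by DESeq2. In E0771, 661 became 1081 without those libraries, 786 with the block and 356 to 602 with 1 library left out. The difference between lines, 223, became 436 without those libraries, 511 by DESeq2, 353 with the compared libraries alone, 357 with the block and 119 to 332 with 1 library left out. The causes of these moves were not tested beyond the smaller number of libraries in some fits.

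Among named genes, 3 that were not called changed sign. Kcnq5 went to -0.12 without BMS204352 replicate 3 or replicate 3 of both BMS204352 groups, Ptpdc1 to 0.02 without NS11021 replicate 3, and Srf to 0.07 without BMS204352 replicate 2 and 0.06 without NS11021 replicate 3. Over the removals of 1 library their values ran from -0.12 to 0.31, from -0.14 to 0.02 and from -0.17 to 0.07. Kcnn4 and Fosb passed by DESeq2, and Fosb also without those libraries (1.56). With 3 libraries a group the test on simulated counts missed 29 of 100 genes changed 1.5-fold, so genes not called may differ by that much. The simulation held no outlying library and changed no scarce genes, so more may be missed in these data. Counts cannot tell fewer cells of a kind from less RNA per cell.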
